A study of Homo sapiens with 22 samples.

Results

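IGF2 and the 6 insulin-like growth factor binding proteins IGFBP2, IGFBP3, IGFBP4, IGFBP5, IGFBP6 and IGFBP7 were followed through the reprogramming of human fibroblasts. The 7 genes were taken by symbol from the 33694 genes of the count matrices, and all 7 were among the 12794 genes tested.

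BJ cells, an established human foreskin fibroblast line, were turned into induced pluripotent stem cells inside microfluidic chambers by repeated transfection with mRNAs for POU5F1, SOX2, KLF4, MYC, LIN28 and NANOG. D0 cells were taken before transfection began and served as the starting point, with no untransfected cells followed in parallel, and transfected cells were harvested on D3, D5, D7, D9, D11, D13 and D15. By the study's methods, the fibroblasts were grown in medium with serum and received reprogramming medium from the day after seeding. Transfections had ended by D9, when the medium was switched again. Day, medium and transfection therefore cannot be told apart, also in every contrast with D0. The methods place the whole reprogramming process in a low-oxygen incubator. Each day had 2 pools, A and B, each made of cells from several chips. All groups therefore share 1 cell line, 1 culture format and cryopreservation before capture.

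Insulin-like growth factors (IGFs) are secreted growth factors that signal through the receptor IGF1R, and IGF2 is the imprinted, mostly fetal member of the pair. IGFBPs are secreted carriers that bind IGFs outside the cell, so that they can hold the ligand back from the receptor, store it or deliver it. IGFBP7 differs from the others in that it binds IGFs only weakly.

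The genes are spread over 6 chromosomes of GRCh38 (GENCODE annotation). IGFBP2 (ENSG00000115457) lies on chromosome 2 from 216632828 to 216664436 on the plus strand, and IGFBP5 (ENSG00000115461) lies next to it from 216672105 to 216695549 on the minus strand. Their ends face each other across 7668 bases. IGFBP7 (ENSG00000163453) is on chromosome 4 from 57030773 to 57110385, IGFBP3 (ENSG00000146674) on chromosome 7 from 45912245 to 45921874, IGFBP6 (ENSG00000167779) on chromosome 12 from 53097436 to 53102345 and IGFBP4 (ENSG00000141753) on chromosome 17 from 40443450 to 40457725. IGF2 (ENSG00000167244) is on chromosome 11 from 2129112 to 2158391 on the minus strand. The read-through gene INS-IGF2 covers all of it except the last 3426 bases, and INS-IGF2 was listed at 0 UMIs (unique molecular identifiers, 1 per counted transcript) in every pool. Cell Ranger, which made the counts, leaves out reads that lie in exons of more than 1 gene, so the IGF2 counts may miss part of its reads. IGF2-AS, on the other strand, had 83 UMIs in all pools together, against 25911 for IGF2.

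The start regions of 3 genes are shown because their messages moved in different directions: IGFBP2 rose while its neighbour IGFBP5 fell, and IGFBP4 fell with IGFBP5. Each is the RefSeq window of GRCh38.p14 from 250 bases before to 50 bases after the annotated start, 5′ to 3′ on the strand of the gene, with the TATA box letters TATAAA and the GC box letters GGGCGG in capitals, in either orientation (TTTATA and CCGCCC). In these windows no match to one motif overlapped a match to the other. The table holds 3 windows for IGFBP2, of which 1 is shown.
IGFBP2 (chr2:216633170-216633469, plus strand): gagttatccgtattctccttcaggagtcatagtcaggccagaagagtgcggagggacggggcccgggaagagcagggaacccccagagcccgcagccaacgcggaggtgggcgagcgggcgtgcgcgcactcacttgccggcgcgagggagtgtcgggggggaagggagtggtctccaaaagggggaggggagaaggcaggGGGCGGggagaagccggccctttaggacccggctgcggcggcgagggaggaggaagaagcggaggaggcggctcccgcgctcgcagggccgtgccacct
IGFBP5 (chr2:216695500-216695799, minus strand): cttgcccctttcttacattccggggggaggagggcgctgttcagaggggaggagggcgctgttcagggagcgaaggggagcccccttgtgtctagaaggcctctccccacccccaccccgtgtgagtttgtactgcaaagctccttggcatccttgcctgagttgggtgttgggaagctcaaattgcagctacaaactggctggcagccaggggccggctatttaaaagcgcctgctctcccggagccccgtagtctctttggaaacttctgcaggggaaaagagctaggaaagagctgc
IGFBP4 (chr17:40443200-40443499, plus strand): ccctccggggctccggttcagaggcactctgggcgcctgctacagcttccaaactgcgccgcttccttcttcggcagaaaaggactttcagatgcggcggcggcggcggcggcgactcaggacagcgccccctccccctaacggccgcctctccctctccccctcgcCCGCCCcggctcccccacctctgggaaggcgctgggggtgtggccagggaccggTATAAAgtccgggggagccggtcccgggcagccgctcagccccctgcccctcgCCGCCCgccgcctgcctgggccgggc

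Windows were found for 5 of the 7 genes, with IGF2 and IGFBP7 the genes named only. IGFBP4 was the 1 gene of the 5 with TATAAA, which 11.5% of the 35116 windows in the table held. GGGCGG was held by the windows of IGFBP2, IGFBP3, IGFBP4 and IGFBP6 and by 45.0% of all windows, and the IGFBP5 window held neither motif. The base composition ran from 59.0% G and C in IGFBP5 to 74.7% in IGFBP3. Reads here come from the 3′ ends of transcripts, so which start was used was not measured.

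Across the series, 22 libraries with 44197 barcodes made up 16 pools, 6 of them captured as 2 aliquots that were added together. After filtering, 41975 cells remained. Libraries shared at most 1.63% of the barcodes of the smaller one. Cells were split by 2 genes. COL1A1, a collagen gene of fibroblasts, at 500 CPM (UMIs scaled to the same total in every cell or pool) or more with POU5F1 under 100 CPM defined 17290 COL1A1-high cells. POU5F1, a pluripotency factor, at 200 CPM or more with COL1A1 under 250 CPM defined 9221 POU5F1-high cells. A further 1134 cells were past both upper limits and were left out of the classes, and 14330 cells met neither definition. Within 20% of the limits lay 5260 cells for COL1A1 and 1326 for POU5F1. Of 10 fibroblast or somatic markers, 9 were higher in COL1A1-high cells and THY1 was not called, while all 11 pluripotency markers tested were higher in POU5F1-high cells. NANOG and POU5F1 were among the transfected mRNAs, and POU5F1-high cells reached 30 in both pools from D7 on.

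By their medians, taken over unlike sets of days, aliquots of 1 pool differed about as much as pools did. For the 7 genes the median absolute log2 difference was 0.49 between aliquots of the same pool (42 values) and 0.38 between pools of the same day (56 values). The widest gap was on D9, where IGFBP4 stood at 24.8 and 103 CPM in the aliquots of pool A and at 29.7 and 89.7 CPM in those of pool B. On the log2 scale that was 2.06 and 1.59 between aliquots, against 0.59 between the 2 pools of D9. The share of COL1A1-high cells moved with the IGFBP4 level, at 4.20% and 25.1% in pool A and at 5.85% and 25.5% in pool B. By the study's methods, the aliquots of a pool were split from the same mixture of cells, and why those of D9 differed this much is not known. D9 values, also where D9 is the reference, are sums over both aliquots, and the part of this gap in them was not tested.

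Summed over all cells of a pool, IGFBP2 and IGFBP3 rose in the first week, IGFBP4, IGFBP5 and IGFBP6 ended far below D0, and IGF2 and IGFBP7 fell between D7 and D15. In such sums, fewer cells of a type and less RNA per cell cannot be told apart. A gene was called when edgeR's quasi-likelihood test gave an adjusted p below 0.01 over all genes tested and a log2 fold change beyond 0.25. Fold changes are given with a standard error (SE), taken as the size of the log2 fold change divided by the square root of the test's F statistic. Each fold change between days rests on 2 pools a day.

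**Figure D1:**
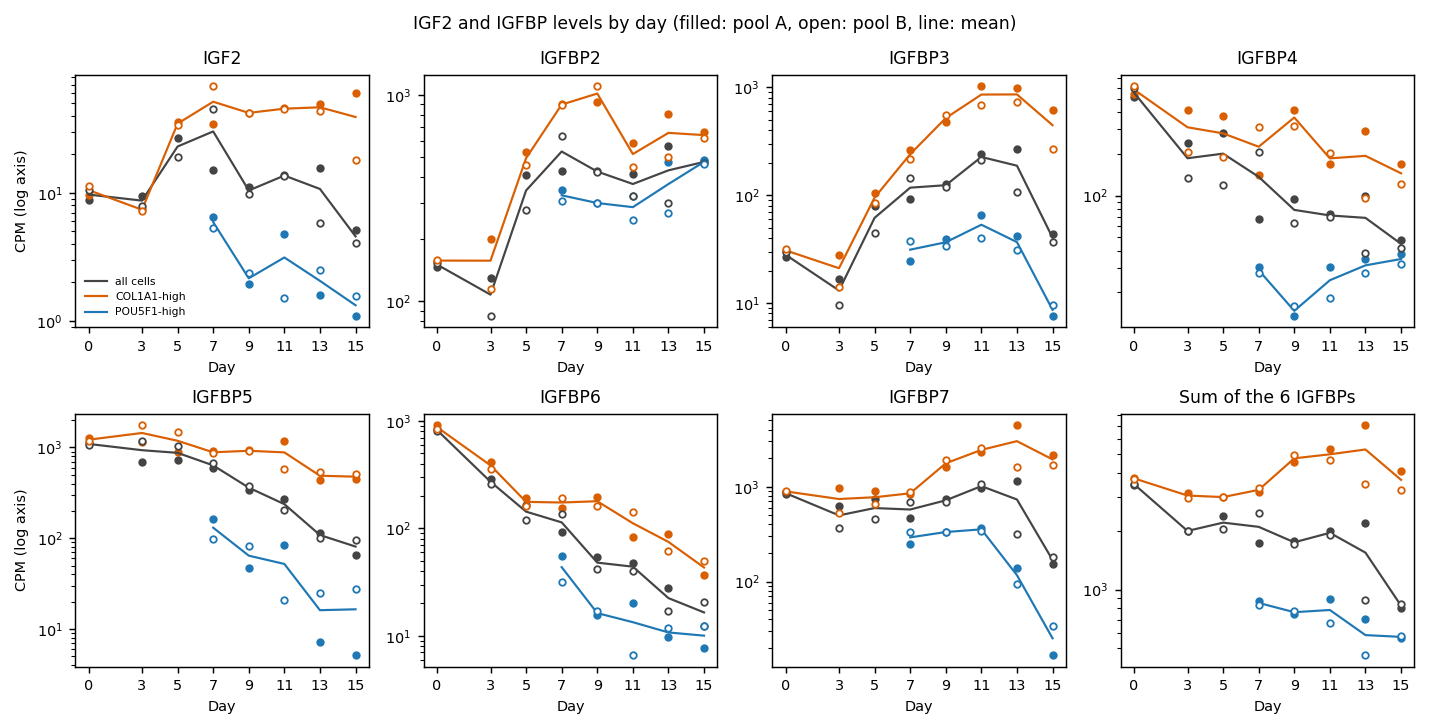
Level of each gene (CPM, log axis) by day in all cells (grey), COL1A1-high cells (orange) and POU5F1-high cells (blue), with pool A as filled points, pool B as open points and the mean as a line, and the summed level of the 6 IGFBPs in the last panel. For IGFBP3 from D5 and for IGFBP7 from D9 the orange points lie above those of D0, with the blue points below them, and the orange points of IGFBP2 lie closest to the blue ones on D15.

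IGF2, the ligand, was a low message throughout. It stood at 8.82 and 10.6 CPM in pools A and B on D0, at 9.44 and 7.93 on D3 and at 27.0 and 18.96 on D5. It then read 15.1 and 45.1 CPM on D7 and 11.1 and 9.71 on D9. The D5 and D7 pools all lay above the D0 pools, and the D7 pools were far apart. IGF2 read 13.9 and 13.4 CPM on D11, 15.6 and 5.81 on D13 and 5.09 and 4.04 on D15, so both D15 pools were below every pool of D0 to D11. Its fall from D7 to D15 was called (log2 fold change -2.70 ± 0.47 SE, adjusted p = 0.00058). It was lost without pool B of D15, and without pool B of D7 it was -1.71, still called. D7 against D0 (1.54 ± 0.44, adjusted p = 0.012) and D15 against D0 (-1.15 ± 0.45, adjusted p = 0.039) were not called. The D7 value ran from 0.58 without pool B of D7 to 2.12 without pool A of D7 and was called under 8 of 25 alternatives, and the D15 value ran from -1.38 to -0.20 and was called under 3.

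IGFBP2, a binding protein that prefers IGF2, was the 1 member called above D0 at the end. It stood at 148 and 154 CPM on D0, 130.5 and 85.2 on D3, 411 and 279 on D5 and 430.5 and 635 on D7. The step from D3 to D5 was called (1.62 ± 0.28, adjusted p = 0.0029), as was D7 against D0 (1.73 ± 0.28, adjusted p = 0.00025). The D3 to D5 calls of IGFBP2 and IGFBP3 were lost without pool B of D3, without pool A of D5 and with the pools of those days alone, and that of IGFBP3 also with the largest aliquot of each pool. After D7 it had no called step, with 427 and 424 CPM on D9, 415 and 326 on D11, 564 and 299 on D13 and 479 and 469 on D15. Every pool from D5 on was above both D0 pools, and D15 against D0 was called (1.59 ± 0.28, adjusted p = 0.00025), with 2.31 under the stricter cell filter.

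IGFBP3, the main carrier of IGFs in blood, rose and then fell back. It was at 26.5 and 29.5 CPM on D0, 16.6 and 9.50 on D3, 78.5 and 44.7 on D5 and 91.4 and 143 on D7. Its D3 to D5 step was called (2.19 ± 0.37, adjusted p = 0.0029), and so was D7 against D0 (1.97 ± 0.37, adjusted p = 0.00074), which was lost without pool A of D0. It reached 127 and 119.8 CPM on D9, 239.8 and 212 on D11 and 268 and 107 on D13, then read 43.7 and 37.0 on D15. Both D15 pools lay under every pool of D7 to D13. The fall from D7 to D15 was called (-1.51 ± 0.36, adjusted p = 0.005), though it was lost with a stricter cell filter, with the largest aliquot of each pool, and without pool B of D7 or either D15 pool. D15 did not differ from D0 at the threshold (0.46 ± 0.36, adjusted p = 0.27), though with the stricter cell filter it was called, at 1.28.

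IGFBP4, whose protein is cut by the protease PAPPA to release IGF, fell early and unevenly. It stood at 509.8 and 592 CPM on D0, 239 and 133 on D3, 282 and 119.5 on D5 and 67.9 and 205 on D7. Later values were 94.7 and 62.9 CPM on D9, 74.0 and 69.7 on D11, 99.6 and 38.5 on D13 and 48.1 and 41.5 on D15. No later pool came near the D0 pools. The changes of D7 against D0 (-2.11 ± 0.53, adjusted p = 0.0051) and D15 against D0 (-3.68 ± 0.56, adjusted p = 8.9e-05) were called. The D7 call was lost under 5 alternatives, among them leaving out either D0 pool or pool A of D7. It was -1.52 without pool A of D7 and -3.08 without pool B.

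IGFBP5, a carrier that also binds extracellular matrix, fell later. It was at 1115 and 1071 CPM on D0, 698 and 1167 on D3, 718 and 1025 on D5 and 591 and 677 on D7. The D3 and D5 pools straddled or neared the D0 level, and D7 against D0 was not called (-0.88 ± 0.29, adjusted p = 0.025), though it was under 5 of 25 alternatives, leaving out either D3 pool among them. It then read 343 and 379 CPM on D9, 271 and 204 on D11, 115 and 102 on D13 and 66.2 and 95.8 on D15. From D7 on, each day's pools lay below those of the day before. Falls from D7 to D15 (-2.94 ± 0.31, adjusted p = 1.2e-05) and from D0 to D15 (-3.82 ± 0.33, adjusted p = 5.4e-07) were called. With the stricter cell filter they were -1.76 and -2.64, both still called.

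IGFBP6, which binds IGF2 in preference to IGF1, had the largest fall of the 7. From 843 and 799 CPM on D0 it went to 287 and 257 on D3, 165 and 121 on D5 and 92.7 and 135 on D7. It was at 53.9 and 42.1 CPM on D9, 47.5 and 40.5 on D11, 27.7 and 17.2 on D13 and 12.3 and 20.7 on D15. No later pool reached the D0 pools, and D3 against D0 was called (-1.63 ± 0.28, adjusted p = 0.00068), a call lost with the pools of those days alone. Over the whole course it fell by 5.69 on the log2 scale (SE 0.33, adjusted p = 2.1e-08). A further called step, D9 against D7 (-1.28 ± 0.28, adjusted p = 0.0079), is to be read beside the D9 aliquots, which gave 19.6 and 58.1 CPM in pool A and 27.0 and 54.3 in pool B. That step was lost under 12 of 25 alternatives, among them the largest aliquot of each pool.

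IGFBP7, a matrix-associated protein of vessel walls and stroma, ended below D0 in all cells. It stood at 829.7 and 880.3 CPM on D0, 632 and 365 on D3, 735 and 456 on D5 and 467 and 683 on D7. It read 741 and 696 CPM on D9 and 958 and 1072 on D11, 1146 and 320.5 on D13 and 155 and 183 on D15. Both D15 pools were below every earlier pool. The changes from D7 to D15 (-1.74 ± 0.42, adjusted p = 0.0051) and from D0 to D15 (-2.40 ± 0.43, adjusted p = 0.00031) were called. With the stricter cell filter the D0 to D15 change was -1.15, still called. The D7 to D15 call was lost under that filter (2000 genes and 5% mitochondrial UMIs per cell) and without pool B of D7 or either D15 pool, with values from -0.49 to -1.98 over all alternatives.

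Set against all genes tested, few members were called between adjacent days. IGFBP6 was called lower in D3 against D0, where 25.6% of genes were called and 12.6% were lower. IGFBP2 and IGFBP3 were called higher in D5 against D3, where 3.56% were called and 3.2% were higher. IGFBP6 was called lower in D9 against D7, where 7.37% were called and 2.78% were lower. No member was called in D7 against D5 (2.06% of genes), D11 against D9 (4.09%), D13 against D11 (0.117%) or D15 against D13 (0.086%). Over D0 to D7, where 36.7% of genes were called, 2 members were higher (19.4% of genes) and 2 lower (17.3%). Over D7 to D15, where 29.1% were called, 5 members were lower (14.8%). Over D0 to D15, where 53.4% were called, 1 member was higher (26.8%) and 4 lower (26.7%). The median log2 fold change of the 7 over D0 to D15 was -2.40, against 0.01 over all genes tested, where both directions cancel. Without its sign, the median over all genes tested was 0.96. These 3 intervals share pools, so they are not separate evidence.

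The cells that supplied the UMIs changed as well. On D0, COL1A1-high cells were 71.1% and 82.1% of the cells of pools A and B and gave 81.7% and 91.1% of the IGFBP5 UMIs. On D15 they were 6.13% and 2.23% of cells, yet gave 69.2% and 11.9% of the IGFBP3 UMIs and 68.4% and 15.1% of the IGFBP7 UMIs. They gave 6.70% and 2.15% of the IGFBP2 UMIs, beside 4.86% and 1.63% of the UMIs of all genes. POU5F1-high cells, 85.5% and 82.4% of the D15 cells, gave 89.2% and 85.3% of the IGFBP2 UMIs and 68.7% and 66.8% of those of IGFBP4. They gave 87.9% and 86.4% of the UMIs of all genes. Cells in no class, 7.88% and 11.5% of the D15 cells, gave 58.3% and 49.4% of the IGFBP5 UMIs. The D15 sum of IGFBP2 thus came mostly from POU5F1-high cells, as did the UMIs of all genes. Those of IGFBP3, IGFBP5 and IGFBP7 came mostly from the minority outside that class.

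The class comparison set COL1A1-high against POU5F1-high cells of the same pool, over the 10 pools of D7 to D15. All 7 members were called higher in COL1A1-high cells, where 66.3% of genes were called in either direction and 32.9% were called higher in that class. A called difference was therefore common among all genes, and the members are described by its size. Their median log2 difference was 3.38, against -0.03 over all genes, where both directions cancel. Without its sign, the median difference over all genes was 0.64. The members' own levels took no part in defining the classes, though the 7 genes were chosen with earlier results of these data known.

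IGF2 differed by 4.13 on the log2 scale (SE 0.28, adjusted p = 1e-07). Its level in POU5F1-high cells ran from 1.10 to 6.50 CPM over the pools, and was 1.83% to 18.8% of that in COL1A1-high cells of the same pool. IGFBP5 (4.24 ± 0.37, adjusted p = 4.9e-07) was at 1.15% to 18.1%, and IGFBP3 (4.15 ± 0.29, adjusted p = 1.2e-07) at 1.22% to 17.7%. For these 3 genes the POU5F1-high level was a small part of the COL1A1-high level in each of the 10 pools. This holds for POU5F1-high cells as defined, with their COL1A1 limit. In cells past both upper limits, IGFBP5 read 550 and 352 CPM on D11, and 507 on D13 and 601 on D15 in pool B. In the same order, IGFBP3 read 602, 424, 581 and 222 CPM, and IGF2 32.2, 27.8, 22.5 and 29.7. What these cells are was not tested.

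IGFBP7 differed by 3.38 (SE 0.54, adjusted p = 8.9e-05), with a wide range of 0.771% to 38.4%. IGFBP4 (2.94 ± 0.33, adjusted p = 4.7e-06) was at 3.28% to 29.1% and IGFBP6 (2.72 ± 0.27, adjusted p = 1.7e-06) at 4.70% to 35.7%. IGFBP2 had the smallest difference, 1.04 (SE 0.16, adjusted p = 6.1e-05), and its POU5F1-high level was 27.2% to 74.8% of the COL1A1-high one. All 10 pools had the COL1A1-high level above the POU5F1-high level for every member, and the share of all genes with this pattern is not given here.

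**Figure D2:**
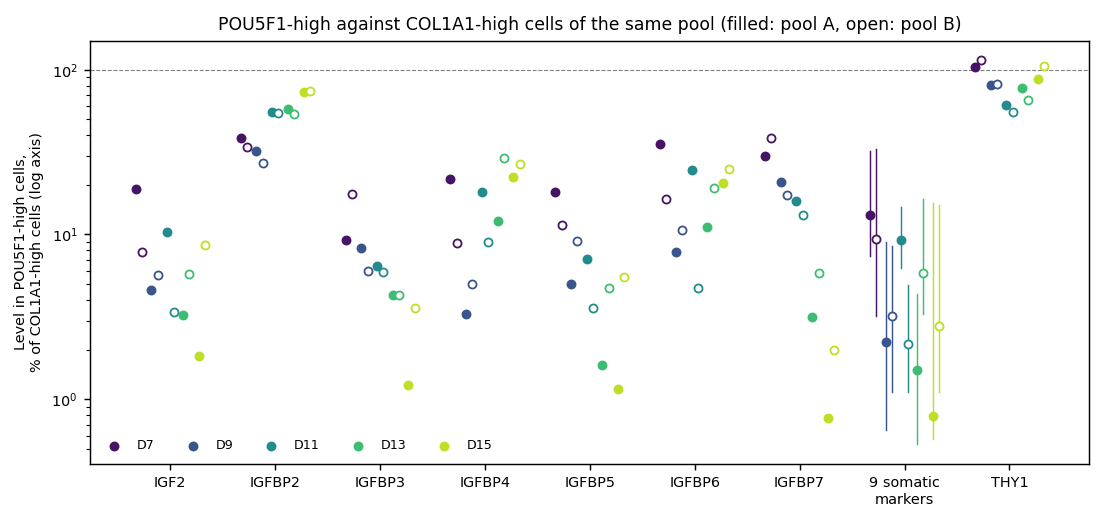
Level in POU5F1-high cells as a percentage of that in COL1A1-high cells of the same pool (log axis) for each member, the median and range of 9 somatic markers, and THY1, by day from D7 (dark) to D15 (light), with pool A filled and pool B open. IGFBP2 goes from 27.2% on D9 to 74.8% on D15 in pool B, and IGFBP7 from 20.7% to 0.771% in pool A.

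Free RNA in droplets can give cells UMIs of genes they do not express. The levels of the 10 somatic markers are therefore given beside those of the members, and the part of free RNA was not tested. On D15 their POU5F1-high level had a median of 1.16% and 2.89% of the COL1A1-high level in pools A and B. TWIST2 stood at 15.6% and 15.1% and THY1 at 87.5% and 106%, and the other 8 lay between 0.572% (DCN) and 3.70% (S100A4) in pool A and between 1.11% and 4.08% in pool B. IGFBP7 at 0.771% and 1.98% and IGFBP3 at 1.22% and 3.59% were within the span of those 8 in both pools. IGF2 at 1.83% and 8.63% and IGFBP5 at 1.15% and 5.53% were within it in pool A and above it in pool B. IGFBP2 at 73.7% and 74.8%, IGFBP4 at 22.2% and 26.7% and IGFBP6 at 20.7% and 25.1% were above every marker but THY1. On D9, by the same measure, IGFBP7 was at 20.7% and 17.3%, against marker medians of 2.94% and 3.42%.

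Shares of cells with at least 1 UMI were compared after each cell was thinned to 5000 UMIs, which left out no cell. On D15 an IGFBP2 UMI was found in 82.0% and 79.4% of POU5F1-high cells and in 60.0% and 80.9% of COL1A1-high cells, the latter from 35 and 47 cells. IGFBP7 was found in 4.71% and 15.0% of POU5F1-high cells and in 85.7% and 83.0% of COL1A1-high cells, and IGFBP3 in 3.48% and 4.61% against 40.0% and 38.3%. The shares of COL3A1, a gene POU5F1-high cells should lack, were 2.66% and 3.91% there, and COL1A2 was found in 13.1% and 20.7%. In POU5F1-high cells of D15, IGFBP3 and IGFBP7 were within the span of these collagen genes, and IGFBP2 was far above it. IGFBP4 was found in 15.98% and 14.9% and IGFBP6 in 2.25% and 5.70% of POU5F1-high cells. IGFBP4 was thus above the span of the 2 collagens in pool A and within it in pool B, and IGFBP6 under it in pool A and within it in pool B. POSTN, another somatic marker, at 1.51 and 2.64 CPM in these cells, is not in this span. Shares were not scaled by the level in COL1A1-high cells of D15. There IGFBP6 read 37.2 and 49.2 CPM, COL3A1 545 and 318, and COL1A2 1832 and 1335. Like shares therefore need not mean like parts of free RNA. How much of any of these shares is free RNA was not tested. No order between the classes is read from the IGFBP2 shares, which go against the CPM in pool A. Without thinning, the median POU5F1-high cell of D15 held 58329 and 31238 UMIs in pools A and B, and the median COL1A1-high cell 43342 and 22636.

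Whether the class difference itself changed by day was tested with a term for each day against D9. On D15 it was smaller for IGFBP2 by 1.46 on the log2 scale (SE 0.12, adjusted p = 0.00031) and larger for IGFBP7 by 3.79 (SE 0.44, adjusted p = 0.0015), while 3.31% of genes were called, 2.24% larger and 1.07% smaller. On D13 IGFBP2 alone of the members was called, at -1.07 (SE 0.12, adjusted p = 0.0028), where 1.94% of genes were called and 1.07% were smaller. No member was called on D11, where edgeR called 0 genes, or on D7, where 0.00782% were. IGFBP2 on D11 was at -0.96 (SE 0.12, adjusted p = 0.036), with log2 class differences of 0.85 and 0.86 in the D11 pools. The unadjusted test passed 0.05 for 1987 genes on D11. For IGFBP2 the log2 class difference was 1.63 and 1.88 in the D9 pools and 0.44 and 0.42 in the D15 pools. For IGFBP7 it was 2.27 and 2.53 on D9 and 7.02 and 5.66 on D15. Neither pair overlapped the other. IGFBP4 narrowed from 4.93 and 4.32 to 2.17 and 1.91, which did not pass (-2.72 ± 0.55, adjusted p = 0.016).

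Within COL1A1-high cells IGF2, IGFBP2 and IGFBP3 were called above D0 on D15, IGFBP4, IGFBP5 and IGFBP6 were called below it, and IGFBP7 was not called. These contrasts all share the 2 D0 pools, so each is given by its own values. IGFBP3 went from 30.1 and 31.4 CPM on D0 to 28.1 and 13.9 on D3, 106 and 84.3 on D5 and 264 and 215 on D7. It read 481 and 556 CPM on D9, 1027 and 685 on D11, 984 and 733 on D13 and 621 and 269 on D15. Every pool from D5 on was above the D0 pools. IGFBP3 was called on D11 (4.69 ± 0.41, adjusted p = 2e-06) and D13 (4.66 ± 0.41, adjusted p = 1.5e-06), which differ by less than their SE, and on D15 (3.75 ± 0.40, adjusted p = 1e-05). The D11 value was 3.79 with doubled class limits and the D15 value 2.99 without pool A of D15, both still called.

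IGFBP2 in COL1A1-high cells rose from 157 and 159 CPM on D0 to 532 and 457 on D5, 905 and 893 on D7 and 928 and 1106 on D9, then stood at 586 and 449.5 on D11 and 659.8 and 619 on D15. All pools from D5 to D15 were above D0, with called contrasts of 2.61 ± 0.26 on D9 (adjusted p = 6.1e-06) and 1.90 ± 0.26 on D15 (adjusted p = 8.7e-05). IGF2 moved from 9.65 and 11.3 CPM to 35.4 and 33.9 on D5, 42.1 and 42.0 on D9, 45.8 and 44.8 on D11 and 60.1 and 18.0 on D15. It was called on D5 (1.63 ± 0.37, adjusted p = 0.0045) and on every later day, with 1.84 ± 0.41 on D15 (adjusted p = 0.0038). The D15 value was 0.64 without pool A of D15 and 0.44 with doubled class limits, neither of them called. The IGF2 calls were also lost without pool A of D0 on all of these days and without pool B of D0 on each but D7. On D5 the call was also lost without either D5 pool and with halved class limits, and on D9 without pool A of D9.

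IGFBP7 in COL1A1-high cells stood at 874 and 912 CPM on D0, 958 and 525 on D3, 898 and 651 on D5 and 834 and 870.4 on D7. It then read 1626 and 1902 on D9, 2305 and 2584 on D11, 4438 and 1605 on D13 and 2178 and 1699.6 on D15. All pools from D9 on were above D0, but the called contrast was D13 alone (1.61 ± 0.35, adjusted p = 0.0027), and D15 did not pass (1.00 ± 0.35, adjusted p = 0.043) but was called under 4 of 23 alternatives, leaving out either D13 pool among them. The D13 call was lost without either D0 pool and without pool A of D13, where it was 0.77 at the lowest.

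IGFBP6 fell in COL1A1-high cells too. It went from 911 and 838 CPM on D0 to 417 and 354 on D3, 193 and 160.3 on D5, 197 and 161 on D9 and 37.2 and 49.2 on D15. No pool overlapped D0, and D15 was at -4.47 ± 0.30 (adjusted p = 1.7e-07). IGFBP4 went from 543 and 617 CPM to 414 and 317 on D9 and 169 and 120.2 on D15, and only D15 was called (-2.11 ± 0.50, adjusted p = 0.0055). IGFBP5 read 934 and 904 CPM on D9, below the 1266 and 1167 of D0 but not called (-0.48 ± 0.33, adjusted p = 0.26). It was at 439.9 and 536 on D13 and 449 and 504 on D15, both called (-1.45 ± 0.34, adjusted p = 0.004, and -1.47 ± 0.34, adjusted p = 0.005). The D15 calls of IGFBP4 and IGFBP5 were lost without any 1 of the D0 or D15 pools and with doubled class limits. The D13 call of IGFBP5 was lost without either D0 pool, without pool A of D13 and with halved class limits.

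Against D0 in COL1A1-high cells, 1 member was called lower on D3, where 8.89% of genes were called and 3.49% were lower. That call, of IGFBP6, was lost without any 1 of the 4 pools compared and with doubled class limits. On each of D5, D7, D9 and D11, 3 members were higher and 1 was lower. The D5 call of IGFBP3 was lost under 7 of 26 alternatives, leaving out any 1 of the D0 and D5 pools among them, and that of IGFBP2 without pool B of D0. On D5 19.4% of genes were called, 10.5% higher and 8.82% lower, and on D7 23.6% were, 13.1% higher and 10.5% lower. On D9 25.5% were called, 13.7% higher and 11.8% lower, and on D11 15.7% were, 9.7% higher and 6.01% lower. On D13 4 members were higher and 2 lower, where 22.8% of genes were called, 13% higher and 9.86% lower. On D15 3 were higher and 3 lower, where 17.1% were called, 9.87% higher and 7.23% lower. The D11 values rest on 68 and 945 cells and those of D13 on 372 and 74, and in pool A of D11 and pool B of D13 another 566 and 403 cells were past both upper limits and left out. The D15 values rest on 35 and 47 cells, and that of IGF2 in pool B on 19 UMIs. The summed level of the 10 somatic markers in these cells was between 10789.5 and 11336 CPM on D0 and between 3686 and 4697 on D15, so the class also changed in other fibroblast genes. In the same cells the summed pluripotency markers went from between 43.4 and 44.4 CPM on D0 to between 354 and 559.6 CPM on D15, and the summed mesendoderm markers from at most 0.0667 to between 52.7 and 124 CPM. The part of these in the members' changes was not tested.

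Within POU5F1-high cells, D9 was the reference because the D7 pools had 44 and 47 such cells. IGFBP7 went from 337 and 329 CPM on D9 to 371 and 340.0 on D11, 139 and 94.2 on D13 and 16.8 and 33.7 on D15. Both D15 pools lay below every earlier pool, and the change was called (-3.66 ± 0.33, adjusted p = 9.3e-05). IGFBP3 went from 39.6 and 33.5 CPM to 65.9 and 40.4, 42.0 and 31.3, and 7.61 and 9.66, and D15 was called (-2.02 ± 0.31, adjusted p = 0.0013), a call lost without pool A of D9 or either D15 pool.

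IGFBP4 was the 1 member called higher on D15 in POU5F1-high cells. It read 13.6 and 15.9 CPM on D9, 30.7 and 18.3 on D11, 35.0 and 27.7 on D13 and 37.6 and 32.1 on D15, with no overlap between the D9 and the D15 pools (1.30 ± 0.26, adjusted p = 0.0053). The D15 call was lost without either D9 pool, without either D15 pool, without pool B of D7 and at 100 or more cells per class. IGFBP2 stood at 299 and 300.3 CPM on D9 and 486 and 463 on D15, which did not pass (0.72 ± 0.24, adjusted p = 0.041). It was called under 4 of 20 alternatives, among them leaving out either D13 pool and the stricter cell filter, where it was 1.73.

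The other 3 members were low and not called on D15 against D9. IGFBP5 read 46.5 and 82.2 CPM on D9 and 5.18 and 27.8 on D15 (-1.88 ± 0.86, adjusted p = 0.11), with -1.11 under halved class limits, -3.56 without pool B of D15, and a call when no filter on genes was used. IGFBP6 read 15.5 and 17.1 on D9 and 7.68 and 12.4 on D15 (-0.63 ± 0.47, adjusted p = 0.31), and IGF2 1.93 and 2.37 on D9 and 1.10 and 1.55 on D15 (-0.62 ± 0.51, adjusted p = 0.36). The pools of the 2 days did not overlap for any of the 3, but the share of all genes without overlap is not given here, so no fall is read from it. In all, 1 member was called higher and 2 lower on D15, where 15.3% of genes were called, 8.64% higher and 6.66% lower. In the main edgeR fit no member was called on D11 (0.844%) or D13 (5.17%), though some calls on these days were made with DESeq2 and with no filter on genes. Summed marker levels moved in the same cells. From D9 to D15 the somatic markers went from between 802 and 853 CPM to between 402 and 488, the trophoblast or placenta markers from between 87.3 and 128 to between 14.4 and 22.3, and the pluripotency markers from between 2543 and 2609.7 to between 4182 and 4607. Endothelial markers went from between 7.04 and 8.01 CPM to between 22.8 and 29.6. Blood markers went from between 9.63 and 12.6 to between 27.5 and 28.1, and mesendoderm markers from between 25.4 and 25.7 to between 26.4 and 59.2. The part of these markers in the falls of IGFBP3 and IGFBP7 was not tested.

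The make-up of the IGFBP messages shifted with class and day. Shares are of the UMIs of the 6 binding proteins together, counted at the 3′ end and so not scaled by transcript length. On D0, IGFBP2 made up 4.25% and 4.37% of them in all cells, and IGFBP6 24.3% and 22.7%. On D15, IGFBP2 made up 59.5% and 55.4% and IGFBP6 1.53% and 2.44%. In POU5F1-high cells the IGFBP2 share went from 39.8% and 38.6% on D9 to 86.7% and 80.0% on D15, and that of IGFBP7 from 44.8% and 42.3% to 2.99% and 5.82%. In COL1A1-high cells IGFBP7 went from 23.1% and 24.5% on D0 to 52.9% and 52.1% on D15. IGFBP2 thus held most of these UMIs in POU5F1-high cells of D15, and IGFBP7 in COL1A1-high cells. The summed level of the 6 genes in all cells was 3472 and 3525 CPM on D0 and 804 and 847 CPM on D15. In COL1A1-high cells it was 3780.3 and 3724 CPM on D0 and 4115 and 3261 on D15, so the D15 pools lay on either side of D0, and in POU5F1-high cells it was 751 and 778 CPM on D9 and 561 and 579 on D15.

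**Figure D3:**
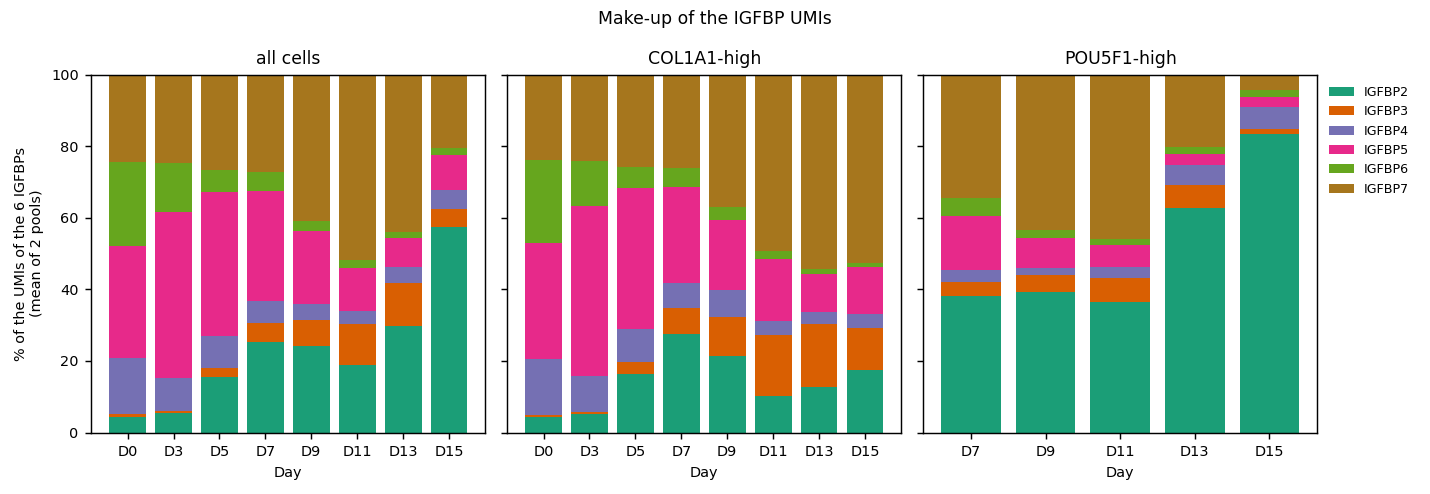
Share of each gene in the UMIs of the 6 IGFBPs (%, mean of 2 pools, stacked to 100) by day in all cells, COL1A1-high cells and POU5F1-high cells. IGFBP2 fills most of the D15 bar in POU5F1-high cells, at 83.3%, and IGFBP7 the largest part of it in COL1A1-high cells, at 52.5%.

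Other genes of the IGF system were taken as a list of 26, of which 25 were in the matrices and 20 were tested. In the class comparison 12 were called higher in COL1A1-high cells, 4 lower and 4 not, beside 32.9% of all genes higher and 33.5% lower. Their median log2 difference was 0.97, against -0.03 over all genes, or 0.64 over all genes without the sign. Among the ligand and its release, IGF1 (4.55 ± 0.36, adjusted p = 2.8e-07), PAPPA, the protease that cuts IGFBP4 (3.90 ± 0.65, adjusted p = 0.00013), and HTRA1, a protease that cuts IGFBP5 (3.47 ± 0.26, adjusted p = 1.7e-07), were higher in COL1A1-high cells. STC2, an inhibitor of PAPPA, was lower there (-0.88 ± 0.15, adjusted p = 0.00014). PAPPA read 185 and 102 CPM in COL1A1-high cells on D15 and 0.549 and 1.59 in POU5F1-high cells, while STC2 read 9.91 and 16.1 against 28.2 and 31.7. STC1, which also inhibits PAPPA, was not called between the classes (1.38 ± 0.45, adjusted p = 0.014), with 74.7 and 56.99 CPM in COL1A1-high against 10.9 and 11.3 in POU5F1-high cells on D9 and 28.5 and 63.4 against 60.6 and 64.0 on D15.

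The receptors differed less. IGF1R, the signalling receptor, was higher in COL1A1-high cells by 0.41 (SE 0.12, adjusted p = 0.0085), and IGF2R, which clears IGF2, by 0.56 (SE 0.13, adjusted p = 0.0014). IGF1R was in both classes on D15, at 29.7 and 19.9 CPM in COL1A1-high and 24.5 and 21.8 CPM in POU5F1-high cells. IRS1, an adaptor below the receptor, was higher (1.37 ± 0.14, adjusted p = 1.8e-06) and GRB10, an adaptor that dampens the signal, lower (-0.86 ± 0.14, adjusted p = 9.8e-05). INSR, the insulin receptor, was not called between the classes, but within POU5F1-high cells it went from 1.99 and 2.01 CPM on D9 to 16.2 and 13.7 on D15 (2.95 ± 0.28, adjusted p = 0.00011).

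IGF2BP1 and IGF2BP3, RNA-binding proteins named for binding IGF2 mRNA, were lower in COL1A1-high cells (-1.45 ± 0.10, adjusted p = 1.4e-07, and -0.91 ± 0.10, adjusted p = 2.5e-06). IGF2BP1 in all cells went from 6.46 and 7.07 CPM on D0 to 98.7 and 88.1 on D15, against the low IGF2 of that day. HMGA2 (1.85 ± 0.22, adjusted p = 7.3e-06) and PLAG1 (0.35 ± 0.10, adjusted p = 0.007), which code for factors known to act on the IGF2 gene, were higher in COL1A1-high cells. Of the IGFBP-related proteins, CTGF was at 3.26 ± 0.24 (adjusted p = 1.7e-07), KAZALD1 at 2.78 ± 0.35 (adjusted p = 1.1e-05), CYR61 at 2.204 ± 0.18 (adjusted p = 2.7e-07) and NOV at 1.51 ± 0.37 (adjusted p = 0.0025).

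**Figure D4:**
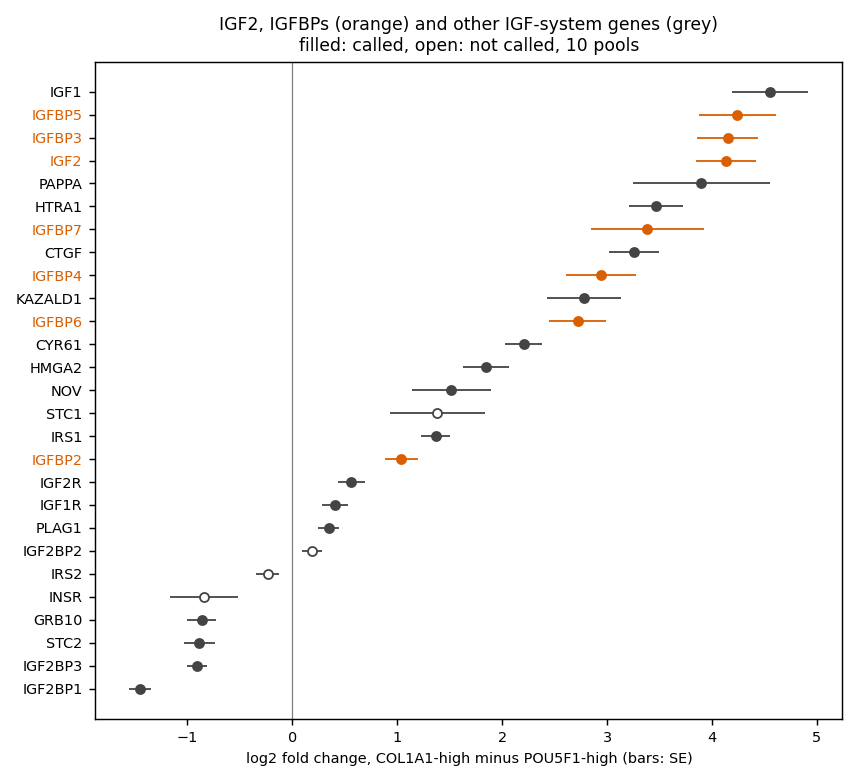
Log2 fold change of COL1A1-high minus POU5F1-high cells over 10 pools, with its SE, for the 7 members (orange) and 20 other genes of the IGF system (grey), filled where called and open where not. IGF1 at 4.55, IGFBP5 at 4.24, IGFBP3 at 4.15 and IGF2 at 4.13 stand at the top, and IGF2BP1 at -1.45 at the bottom.

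Across days the same list moved in both directions. Over D0 to D15 in all cells 8 of the 20 were called higher and 6 lower, where 53.4% of all genes were called. Over D0 to D7 5 were higher and 4 lower (36.7% of genes called), and over D7 to D15 4 were higher and 7 lower (29.1%). IGF1 went from 0.474 and 0.333 CPM on D0 to 5.07 and 4.51 on D11 and read 0.723 and 1.31 on D15, and its D0 to D7 change was called (2.52 ± 0.32, adjusted p = 4.1e-05). HTRA1 went from 70.5 and 68.9 CPM on D0 to 13.95 and 15.0 on D15 (-2.33 ± 0.29, adjusted p = 1.6e-05). IGF1R went from 9.75 and 12.0 CPM to 24.8 and 22.1 (1.05 ± 0.27, adjusted p = 0.0039).

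Genes with the profile most like each member were ranked by Pearson's r of log2(CPM + 1) over the 16 pools among 7046 genes, as a description, since pools of 1 day share their stage and depth. IGFBP6 had the closest, CD63 (r = 0.99), VPS28 (0.99) and LY6K (0.99). IGFBP5 was followed by LPAR1 (0.98), ZADH2 (0.98) and HSBP1L1 (0.98), and IGFBP4 by UBXN6 (0.98), CRAT (0.98) and SLC22A18 (0.97). For IGFBP7 these were RHOA (0.95), PPP1R18 (0.93) and MMP2 (0.93), and for IGFBP2 CPE (0.93), OLFM2 (0.92) and RARRES2 (0.91). IGFBP3 was closest to MEST (0.93), ZNF561 (0.93) and ITM2C (0.92), and IGF2 to POSTN (0.91), SRPX2 (0.89) and BMP1 (0.85). Among the members, IGFBP4 and IGFBP6 were most alike (0.93), then IGFBP5 and IGFBP6 (0.91), and IGFBP2 ran against IGFBP6 (-0.69) and against its neighbour IGFBP5 (-0.58).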

How the data were processed

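The deposited count matrices hold whole UMI counts per gene and cell, made by the authors with Cell Ranger 2.2 per the submitters' processing notes from 10x 3′ libraries, with no normalization. The cell filter asked for 1000 or more genes and no more than 10% of UMIs from mitochondrial genes. No doublet caller was run, and cells past both upper class limits were kept out of the classes. UMIs were summed per pool, aliquots together, and per class where a pool held at least 30 cells of it, and CPM is the usual scaling of UMIs to a common total. Genes found in at least 5% of kept cells were tested.

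Sums were compared with edgeR 4.0.16 (R 4.3.3, TMM, quasi-likelihood, Benjamini-Hochberg over all genes tested). One fit covered all pools by day, one the classes with pool as a block, one the class difference by day, and one each the days within COL1A1-high and within POU5F1-high cells. For a call, the adjusted p had to be under 0.01 with a log2 change past 0.25 in size. The code was tested on simulated counts. Pools are the replicates. Each pool was made from its own set of chips of the 1 cell line, per the study's methods. In the fits by day, p-values measure the spread between such pools of a day, estimated per gene over all pools of the fit. Pools of days outside a contrast thus take part in its p-value. In the class fit, p-values measure how the class difference varied over the 10 pools of D7 to D15, changes between days included. Pool letters were not used to pair days in the main fits. Over 28 pairs of days the correlation of deviations by letter ran from -0.412 to 0.812. Its median was -0.027, with 10 over 0.1, so some pairs of days did share deviations by letter.

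The 7 genes, the IGF-system list of 26 and the marker lists were chosen with earlier results of these data known. All 7 members are described, other IGF-system genes are named where called, and 3 genes are named for the likeness of their profile to each member, from genes with a mean of at least 10 CPM. H19 was not analysed here. Alternatives were DESeq2 1.42.0, its size factors, other filters, class limits, aliquots and blocks, and leaving out each pool. Intervals for shares of cells were not computed.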

Additional observations from a re-analysis of the deposited data

Results flagged for a closer look

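For 3 results the difference between the classes was itself different between days, by the interaction term of edgeR's quasi-likelihood test. The log2 difference of COL1A1-high minus POU5F1-high cells for IGFBP2 was smaller on D13 than on D9 (-1.07) and smaller on D15 than on D9 (-1.46). That for IGFBP7 was larger on D15 than on D9 (3.79). The 3 share the D9 pools, rest on 35 and 47 COL1A1-high cells for D15, and were not recomputed under other settings. No member had a pool past the limit for standing apart from the other 9 in the class difference, the largest gap being 0.403 of the range against a limit of 0.466. The range takes in days between which the class difference changed, so this check could miss such a pool. Pool A of D15 held the highest value for IGF2, IGFBP3, IGFBP5 and IGFBP7.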

How the results depend on the processing

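All 7 members were called between the classes under each of 23 alternatives, the fit with no replicate block among them (7). Over the 10 contrasts of days in all cells, 18 calls became 28 with 0.05 as the threshold and any fold allowed, 14 with the largest aliquot of each pool, and 15 to 22 with 1 pool left out. Within COL1A1-high cells 29 calls became 22 to 37 under other settings and 17 to 34 with 1 pool left out, 17 without either D0 pool. Within POU5F1-high cells 3 calls became 6 with that looser threshold, 5 with DESeq2, 7 with no filter on genes, 5 with the stricter filter on cells, 2 at 100 or more cells of a class, and 1 to 5 with 1 pool left out (1 without pool A of D9, 5 without pool A of D13). With the replicate block, which pairs pools by letter only, the counts were 18, 31 and 3. No fold change of the 7 members that was recomputed reversed (other IGF-system genes and the class difference by day were not recomputed): of 575 values in all cells 36 lost and 18 gained the call, of 759 in COL1A1-high cells 47 and 4, and of 140 in POU5F1-high cells 9 and 5. The share of all genes called under each alternative is not given beside these counts, and the contrasts of days share pools. Counts thus describe only how the members' calls held. In COL1A1-high cells the D15 contrast was run under 23 of 26 alternatives and not at 100 or more cells of a class. Counts there are therefore not all over the same contrasts. The causes of the changes were not tested. With 2 pools a day and few class cells in several pools, a missed threshold does not show that levels were alike. Alternatives in which cells past both limits or named pools were moved were chosen after seeing the data.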
